A study of Paralichthys olivaceus with 24 samples.

Results

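Spleens of Japanese flounder (Paralichthys olivaceus) that had received poly(I:C) were compared between rearing at 25 °C and rearing at 15 °C, 24 h after the treatment. The comparison took the 3 arrays titled for poly(I:C), 25 °C and 24 h and the 3 titled for poly(I:C), 15 °C and 24 h, which are 6 of the 24 arrays of the study, and all 14481 probes that are not controls. Every group of the study held 3 single-colour (Cy3) arrays of total spleen RNA, and the other 18 arrays covered poly(I:C) at 3 h and DEPC-treated water, the control, at both temperatures and both times. The labels give no age, size, dose or route, and nothing in them says whether the arrays of a group came from different fish. The p-values therefore reflect only how far these samples spread, and that spread may be technical.

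Poly(I:C) is a synthetic double-stranded RNA. Vertebrate cells sense such RNA through Toll-like receptor 3 and the RIG-I-like receptors, and answer with interferon and interferon-stimulated antiviral genes. Fish take their body temperature from the water, and the pace of their immune responses follows it. The spleen is a lymphoid and blood-filtering organ in fish, so its RNA is a mixture of immune and blood cells, and in such bulk RNA fewer cells of a type and less RNA per cell cannot be told apart. The files pair no probe with a gene name, and none of the 14478 target names matched the reference gene table, so probes are given by their identifiers, with no gene role, no pathway count and no check of spleen marker genes.

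Signals below are log2 values relative to the 75th percentile of their own array, so that 0 is the level of that percentile, and a difference of 1 is a 2-fold change. The 75th percentile ran from 507.4 to 787.0 intensity units on the 6 arrays, against 348.1 to 863.5 on all 24. Between 83.6% and 94.2% of probes were well above background on each of the 6 arrays, and no spot was saturated. A probe was tested if some group had it well above background on each of its 3 arrays, and 13377 probes met this while 1104 did not. The difference was taken from limma, fitted to all 24 arrays, and a probe was called where the Benjamini-Hochberg adjusted p over all tested probes was under 0.05.

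No slide held both groups. The 3 arrays at 15 °C were on slide 1, while at 25 °C replicate 1 was on slide 2 and replicates 2 and 3 were on slide 3. Across all tested probes, 2 arrays of the same group and slide correlated at 0.983 to 0.989, with a median absolute difference of 0.159 to 0.221 on the log2 scale. The 25 °C array of slide 2 and those of slide 3 correlated at 0.975 to 0.978, with a median absolute difference of 0.217 to 0.235. Pairs of 1 array from each temperature correlated at 0.921 to 0.949, with a median absolute difference of 0.427 to 0.526. The arrays of the 2 temperatures thus lay farther apart than the 25 °C arrays of different slides, but slide 1 and 15 °C cannot be told apart within these 6 arrays.

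A large share of the probes tested differed between the temperatures. Of the 13377 probes tested, 5619 were called, a background of 42%. With slide as a fixed block the count was 1476. At 25 °C 2581 probes (19.3%) were higher and 3038 (22.7%) were lower. The balance of the 2 directions turned with quantile scaling, to 2937 higher and 2792 lower, and with normexp background correction, to 1405 higher and 1155 lower of 2560 calls. The unadjusted p was under 0.05 for 6598 probes. The median difference over all tested probes was -0.04 on the log2 scale, with quartiles at -0.48 and 0.41.

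Most called differences were moderate. The median was 0.88 among the called probes that were higher and -0.87 among those that were lower, against a median standard error of 0.20. A difference under 1.5-fold made up 22.9% of the calls (1289 probes). At least a 2-fold difference was reached by 1047 higher probes (7.83% of those tested) and 1229 lower probes (9.19%). The signals of the 3 arrays of one temperature did not overlap those of the other for 7455 probes (55.7% of those tested), of which 5388 were called. A further 2067 probes were free of overlap and not called, and 231 were called although the groups overlapped.

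**Figure D1:**
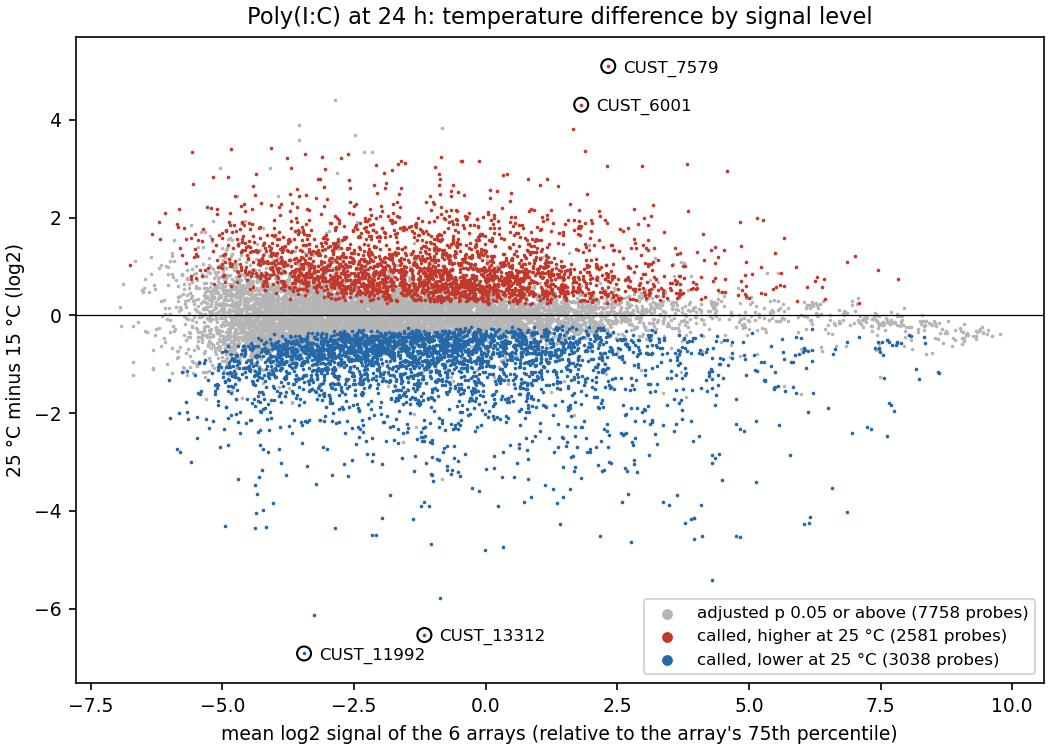
Difference between 25 °C and 15 °C in poly(I:C) fish at 24 h (log2, vertical axis) against the mean log2 signal of the 6 arrays relative to each array's 75th percentile (horizontal axis), with 1 point per tested probe. Red points are the 2581 called probes higher at 25 °C, blue points are the 3038 called lower, grey points were not called, and circles mark the 4 named probes; the lowest blue point lies at -6.92 and the highest red one at 5.10.

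The larger differences lay more often on the lower side. At least a 4-fold difference was found for 318 called probes that were lower at 25 °C and for 152 that were higher. At least a 16-fold difference was found for 32 lower and 2 higher probes. Under 1.5-fold the counts were 693 lower and 596 higher, so the 2 directions were closer to balance among small differences. The 4-fold counts were 289 lower and 168 higher with quantile scaling, 312 and 165 with median scaling, and 174 and 37 with normexp background correction. In water fish at 24 h, measured on other arrays, 4-fold differences went the other way, with 18 lower and 198 higher at 25 °C. Among probes well above background on all 6 of those water arrays the counts were 13 lower and 45 higher. With normexp background correction the water counts were 5 lower and 15 higher. In poly(I:C) fish at 3 h the 4-fold counts were 206 lower and 264 higher.

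**Figure D2:**
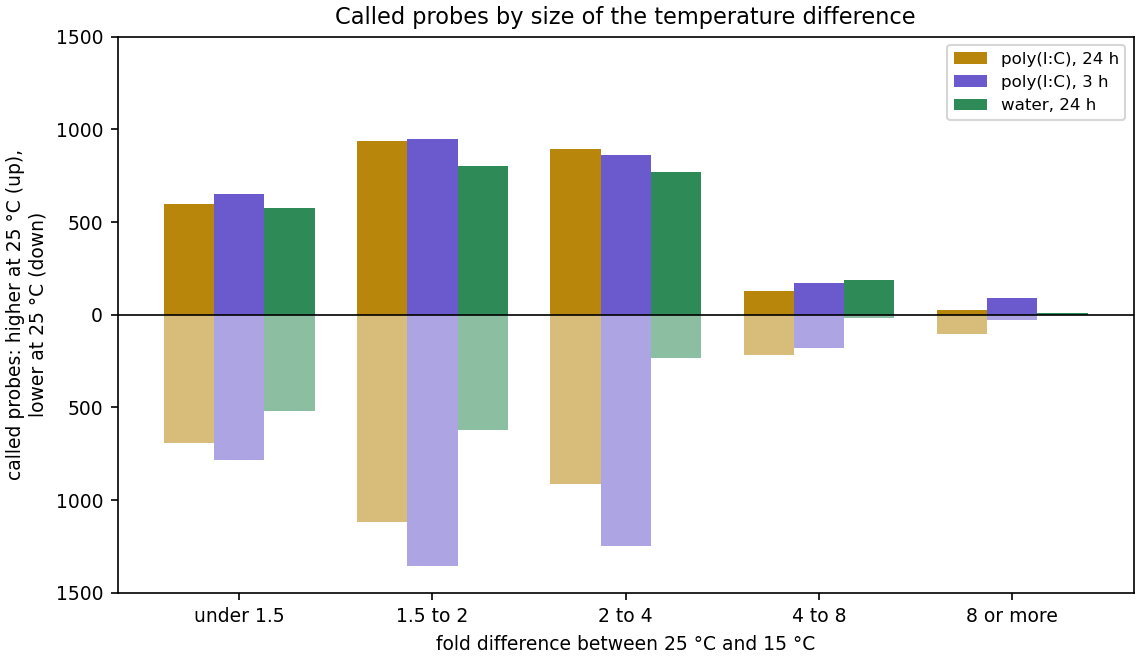
Number of called probes (vertical axis) by the size of the fold difference between 25 °C and 15 °C (horizontal axis), with probes higher at 25 °C drawn upward and those lower drawn downward in a paler shade. Brown bars are poly(I:C) at 24 h, violet bars poly(I:C) at 3 h and green bars water at 24 h; at 8-fold or more, poly(I:C) at 24 h had 25 higher and 101 lower probes, poly(I:C) at 3 h had 93 and 28, and water had 12 and 1.

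The probe with the largest called rise at 25 °C was CUST_7579_PI426483990 (target JFC21892_1_code). Its log2 signals were 4.69, 5.07 and 4.89 at 25 °C, and 0.08, -0.85 and 0.11 at 15 °C. All 3 arrays at 25 °C lay far above all 3 at 15 °C, and the spread within each temperature was small beside the gap. The difference was 5.10 ± 0.22 (SE, n = 3 per group), with an adjusted p of 9.75e-12 from limma. In water fish at 24 h the same probe stood at 4.36 ± 0.13 (SD, n = 3) at 15 °C and 5.81 ± 0.17 at 25 °C. Its level in poly(I:C) fish at 15 °C and 24 h was thus the lowest of the groups, while the 25 °C group lay between the 2 water groups of that time.

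The next largest called rise was that of CUST_6001_PI426483990 (target JFC04442_1_code). Its log2 signals were 3.20, 4.63 and 4.08 at 25 °C, and 0.18, -1.47 and 0.28 at 15 °C. The groups did not overlap, and replicate 2 at 15 °C was the lowest array of the 6. The difference was 4.31 ± 0.56 (SE, n = 3 per group; limma adjusted p = 4.68e-06). The water groups at 24 h stood at 4.20 ± 0.59 at 15 °C and 4.54 ± 0.39 at 25 °C (SD, n = 3), and their difference, 0.34, was not called (limma adjusted p = 0.693).

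The largest fall was that of CUST_11992_PI426483990 (target JFC28148_1_code). Its log2 signals were 1.26, -0.53 and -0.69 at 15 °C, and -7.48, -6.77 and -6.47 at 25 °C. It was well above background on all 3 arrays at 15 °C and on none at 25 °C, so the 25 °C level is only an upper bound. With the background subtraction used here, the probe was at least 34.9-fold lower at 25 °C. Such bounds set the mean of the bright group against the dimmer arrays' lowest signal among probes well above background, or the probe's own signal where that was higher. The fitted difference, -6.92, passed the test at an adjusted p of 2.86e-08 in limma, and its size is not fully measured. With normexp background correction the fitted difference was -2.56, a smaller fall than the bound. Such bounds thus hold only for the background subtraction used here.

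The second largest fall was that of CUST_13312_PI426483990 (target JFC03172_1_code). Its log2 signals were 1.77, 2.20 and 2.36 at 15 °C, and -4.94, -4.41 and -3.95 at 25 °C, well above background on all 6 arrays. The groups were far apart and each was tight. The difference was -6.54 ± 0.89 (SE, n = 3 per group; limma adjusted p = 9.06e-06). It came to -4.28 with normexp background correction and to -11.25 with slide as a fixed block, a fit that weighs water arrays of 15 °C and 3 h on which this probe spanned -5.64 to -1.25.

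**Figure D3:**
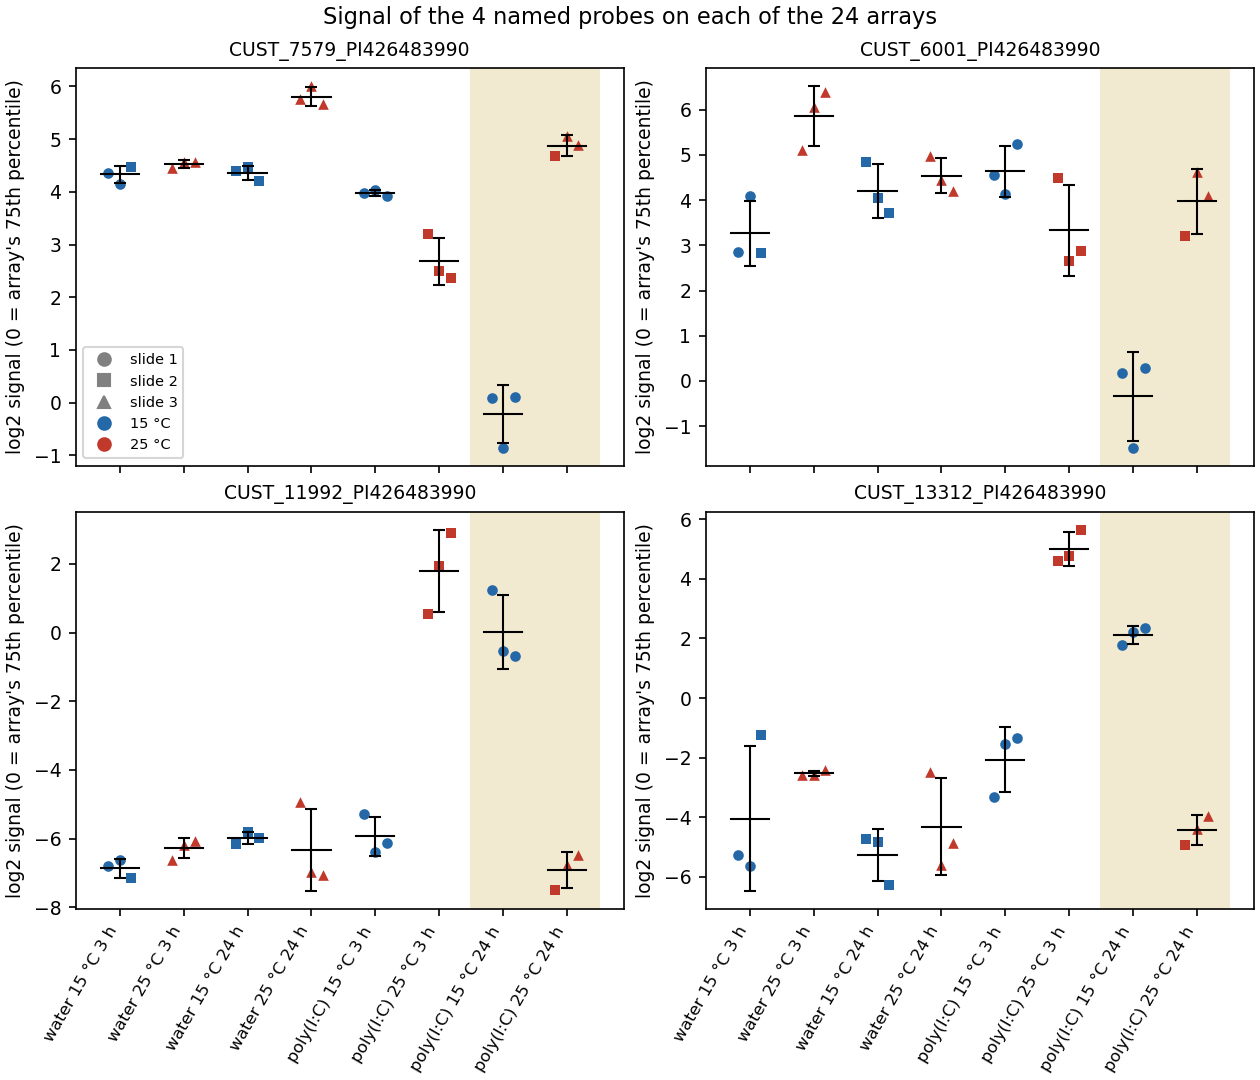
Log2 signal relative to each array's 75th percentile (vertical axis) of the 4 named probes on all 24 arrays, grouped by treatment, temperature and time (horizontal axis). Points are arrays, shaped by slide and coloured by temperature, bars are the mean ± SD of 3 arrays, and the shaded band marks the compared groups; CUST_7579_PI426483990 and CUST_6001_PI426483990 drop in the 15 °C group of the band, and CUST_11992_PI426483990 and CUST_13312_PI426483990 are high there and in poly(I:C) at 25 °C and 3 h.

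Probes detected at only 1 of the temperatures were more often those seen at 15 °C. Among tested probes, 24 were well above background on all 3 arrays at 25 °C and on none at 15 °C, and 23 of them were called. The bound on their difference reached 2-fold for 17, 4-fold for 3 and at most 7.81-fold. The reverse held for 48 probes, of which 46 were called. Their bound reached 2-fold for 28 and 4-fold for 15. These probes passed the filter through the group in which they were bright, so their counts of calls are descriptions only. Most calls came from probes seen at both temperatures: 11598 probes were well above background on all 6 arrays, and 5064 of them were called.

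Dim probes were called less often and had larger errors. The tested probes were ordered by mean signal over all 24 arrays and cut into 4 classes of equal size. In the dimmest class 28.3% were called, with a median standard error of 0.31. The shares were 40.6% and 48.3% in the middle classes and 50.8% in the brightest class, where the median standard error was 0.16. In the dimmest class 353 probes were higher and 594 lower, and in the brightest 842 were higher and 858 lower. With the main scaling the excess of lower probes by count was thus mostly among dim probes, and this excess was absent with quantile scaling and with normexp. The 16-fold falls included bright probes. The 32 probes at least 16-fold lower had 15 °C group means from -2.79 to 8.88, with a median of 3.12, and 25 of them were well above background on all 3 arrays at 25 °C.

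Some target names share a stem, such as JFC01489 with different endings, and such probes allow a check of repeatability within the array. There were 17 stems with 2 tested probes each. A further 8 stems with 3 or more tested probes, JFC01489 among them, were left out of this check. Both probes were called for 5 stems, in the same direction for each of the 5. For another 5 stems only 1 of the 2 probes was called, and for 7 stems neither was. Over the 17 stems the median absolute difference between the probes of a stem was 0.146 on the log2 scale. Probes whose target is a contig numbered JFC numbered 13026 among those tested, and 41.9% were called. Probes whose target carries a database identifier numbered 337, with 85 higher and 72 lower at 25 °C, a share called of 46.6%.

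The same temperature contrast in fish that had received water asks what temperature alone did at 24 h. It used 6 other arrays, with those of 15 °C on slide 2 and those of 25 °C on slide 3, so temperature and slide cannot be told apart within them. It called 3738 probes (27.9% of those tested), with 2346 (17.5%) higher at 25 °C and 1392 (10.4%) lower. On these water arrays 78.4% to 83.9% of probes were well above background at 15 °C and 90.3% to 95.0% at 25 °C. When only probes well above background on all 6 water arrays were tested, 1641 were higher and 1395 lower. With quantile scaling the water split was 1862 higher and 1901 lower, and with slide as a fixed block only 214 probes were called. The 2 temperature contrasts shared part of their calls. Of the 2581 probes higher at 25 °C under poly(I:C), 917 (35.5%) were also higher in water, against a background of 17.5%, and these were 39.1% of the water list. Of the 3038 lower probes, 814 (26.8%) were also lower in water, against 10.4%, and these were 58.5% of the water list. Opposite calls were made for 72 (2.79%) of the higher and 200 (6.58%) of the lower probes. The differences of the 2 contrasts correlated across the 13377 probes at a Pearson r of 0.33 and a Spearman rho of 0.38. The contrasts share slides 2 and 3, and their slide 3 arrays are on the 25 °C side of both. A slide 3 effect would thus enter both with the same sign, and its part in the overlap and the correlation was not tested. Probes are also not independent of each other. All contrasts of the fit also share the estimate of each probe's spread, so a probe with a small spread is called more easily in each.

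Whether the temperature difference itself depended on the treatment was tested as an interaction, the difference under poly(I:C) minus that in water. Of the tested probes, 3164 (23.7%) were called, with 1210 values (9.05%) positive and 1954 (14.6%) negative. With quantile scaling the split was 1551 positive and 1291 negative, so the direction of the balance depended on the scaling. With slide as a fixed block 1224 probes were called. The groups of the interaction lie on unlike slides, so slide effects need not cancel in it. Of the 3616 probes called under poly(I:C) and not in water, 1893 (52.4%) passed this test, and for the others a difference between the treatments was not shown. The interaction uses the same arrays that chose these probes, so this share is a description only. Among the 272 probes called in opposite directions, the median differences were 0.77 under poly(I:C) and -0.63 in water for the 72 that were higher under poly(I:C), and -0.98 and 0.72 for the 200 that were lower.

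The largest positive interactions came from probes of 1 name stem. CUST_6556_PI426483990 (target JFC01489_1_code) had log2 signals of 2.62, 4.73 and 4.14 at 25 °C and -0.17, 1.31 and 1.20 at 15 °C in poly(I:C) fish. In water fish it read 4.83, 4.99 and 3.87 at 25 °C and 6.41, 5.76 and 6.85 at 15 °C. The groups did not overlap in either treatment, and they were ordered in opposite ways. The interaction was 4.83 ± 0.85 (SE; limma adjusted p = 0.000344), and the difference under poly(I:C) alone was 3.06 ± 0.60. CUST_5405_PI426483990 (target JFC01489_3_code) gave 4.62 ± 0.87 for the interaction (SE; limma adjusted p = 0.000665) and 3.05 for the difference under poly(I:C). The third tested probe of the stem had an interaction of 4.35 and a difference of 2.95, so the 3 probes of the stem gave similar values. Whether they detect the same transcript was not tested.

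The largest negative interaction was that of CUST_6587_PI426483990 (target JFC00244_1_code). Under poly(I:C) its log2 signals were 1.74, 2.08 and 2.27 at 15 °C and -4.51, -3.37 and -3.42 at 25 °C. In water they were -6.22, -4.82 and -5.30 at 15 °C, not well above background on any array, and -1.95, -3.31 and -2.66 at 25 °C. The probe was thus brighter at 15 °C after poly(I:C) and brighter at 25 °C in water. The fitted interaction was -8.60 ± 1.11 (SE; limma adjusted p = 1.53e-05), of which the water part rests on a level below detection. The next was CUST_13312_PI426483990, at -7.50 (limma adjusted p = 0.000238), which was likewise not detected on the water arrays of 15 °C and 24 h. On the water arrays of 25 °C and 24 h it was well above background on 1 of 3. The signals of these 2 probes correlated at a Pearson r of 0.98 over the 24 arrays. Whether they detect the same transcript was not tested.

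The temperature contrast at 3 h after poly(I:C), also on 6 other arrays, asks how early the difference was in place. It called 6312 probes (47.2%), with 2724 (20.4%) higher and 3588 (26.8%) lower at 25 °C. With median scaling that split was 3915 higher and 2532 lower, and with slide as a fixed block 2819 probes were called. Many probes were called at both times in opposite directions. Of the 2581 probes higher at 25 °C at 24 h, 1231 (47.7%) were lower at 25 °C at 3 h, against a background of 26.8%, and 323 (12.5%) were higher. Of the 3038 lower at 24 h, 1177 (38.7%) were higher at 3 h, against 20.4%, and 535 (17.6%) were lower. The 1231 probes were 34.3% of the lower list of 3 h, and the 1177 were 43.2% of the higher list.

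The probes that switched sides had median differences somewhat larger than those of all calls. Over all calls the medians were 0.88 for higher and -0.87 for lower probes at each of the times. For the 1231 probes the median difference was -1.003 at 3 h and 0.92 at 24 h. For the 1177 it was 1.06 at 3 h and -1.14 at 24 h. Both differences reached 4-fold for 29 of the former and 137 of the latter. Of the 318 probes at least 4-fold lower at 24 h, 243 were higher at 25 °C at 3 h and 9 were lower. Of the 152 at least 4-fold higher, 95 were lower at 3 h and 10 were higher. Over all tested probes, 20.4% were higher and 26.8% were lower at 3 h. In all, 2408 probes were called in opposite directions, which is 42.9% of the calls at 24 h and 38.1% of those at 3 h, and 858 were called in the same direction. Across the 13377 probes the differences at the 2 times correlated at a Pearson r of -0.40 and a Spearman rho of -0.28. The 15 °C arrays of both times were on slide 1, and the 25 °C arrays were on slide 2 at 3 h and on slides 2 and 3 at 24 h, so temperature and slide cannot be told apart within the arrays of either time.

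The change of the temperature difference between the times was tested directly, as the 24 h difference minus the 3 h difference. Of the tested probes, 6512 (48.7%) were called, with 3443 changes (25.7%) positive and 3069 (22.9%) negative. With median scaling the split was 2890 positive and 3777 negative, so the balance depended on the scaling. The change was at least 16-fold for 89 positive and 225 negative calls. With slide as a fixed block 5286 probes were called, and 5083 of the 6512 calls were kept. In that fit 100% of the 6512 had the same direction. The fit uses the same arrays that chose these probes, so this share is a description only.

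CUST_5622_PI426483990 (target JFC18874_1_code) had the largest positive change. At 3 h its log2 signals were 0.27, -0.36 and -0.08 at 15 °C and -3.90, -4.52 and -4.29 at 25 °C. At 24 h they were -3.01, -4.03 and -2.51 at 15 °C and 0.12, 0.09 and -0.30 at 25 °C. The low group was the one at 25 °C at 3 h and the one at 15 °C at 24 h, with no overlap at either time, while both water groups of 24 h stood near 0 (-0.07 ± 0.28 and 0.38 ± 0.25, SD, n = 3). The change was 7.34 ± 0.45 (SE; limma adjusted p = 1.44e-10). CUST_9137_PI426483990 (target JFC06955_1_code) followed at 7.24 ± 0.41 (SE; limma adjusted p = 4.95e-11), with a 24 h difference of 1.94 and a 3 h difference of -5.30. On the 25 °C arrays of 3 h this probe was well above background on 2 of 3.

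The largest negative changes were those of the 2 probes with the largest falls at 24 h. CUST_11992_PI426483990 read -5.30, -6.38 and -6.12 at 15 °C and 3 h, not above background, and 0.55, 1.94 and 2.91 at 25 °C and 3 h. With the background subtraction used here, it was at least 78.6-fold higher at 25 °C at 3 h and at least 34.9-fold lower at 24 h. Under the alternatives its fitted log2 difference was as small as 4.67 at 3 h and -2.56 at 24 h. CUST_13312_PI426483990 read -3.31, -1.55 and -1.34 at 15 °C and 3 h, and 4.60, 4.77 and 5.64 at 25 °C and 3 h. Its difference was 7.07 at 3 h and -6.54 at 24 h, and the change was -13.61 (limma adjusted p = 4.27e-08). Both probes were thus high at 25 °C early and at 15 °C late, and low elsewhere. The 3 h difference of CUST_13312_PI426483990 missed the threshold with slide as a fixed block (adjusted p = 0.0852).

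The response to poly(I:C) at 25 °C and 3 h, poly(I:C) minus water, shares no array with the temperature contrast at 24 h. Its poly(I:C) arrays are also the 25 °C arrays of the temperature contrast at 3 h, so it is not separate from that contrast. The response called 47% of tested probes, 17.7% higher and 29.3% lower under poly(I:C). Calls in that response and in the temperature contrast at 24 h were mostly of opposite sign where a probe had both. Of the 3038 lower probes, 1488 (49.0%) were raised in that response and 218 (7.18%) lowered, and the 1488 were 62.9% of all probes raised. Of the 2581 higher probes, 1605 (62.2%) were lowered and 82 (3.18%) raised, and the 1605 were 41.0% of all probes lowered. Of the 32 probes at least 16-fold lower, 30 were raised in that response, against 17.7% of all tested probes. Across the 13377 probes the Pearson r was -0.68 and the Spearman rho -0.59, with slides 2 and 3 in both comparisons. The poly(I:C) arrays of that response were all on slide 2 and its water arrays all on slide 3, so treatment and slide cannot be told apart within it. Its slide 3 arrays are subtracted, whereas those of the 24 h contrast are on the 25 °C side. A slide 3 effect would thus enter the 2 comparisons with opposite signs, and its part in the negative correlation was not tested.

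The response at 15 °C and 3 h had fewer calls and also shares no array with the 24 h contrast. It called 299 probes (2.24% of those tested), 227 raised (1.7%) and 72 lowered (0.538%). Its poly(I:C) arrays were on slide 1, with water replicates 1 and 2 on slide 1 and water replicate 3 on slide 2. The response at 25 °C and 3 h instead lay wholly across slides, and the part of the slides in the unlike counts was not tested. Of the 227 raised, 144 (63.4%) were lower at 25 °C at 24 h, against a background of 22.7%, and 18 were higher. The 144 were 4.74% of the lower list. The Pearson r was -0.26 and the Spearman rho -0.18, and slide 1 carried the 15 °C arrays of poly(I:C) in both comparisons.

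**Figure D4:**
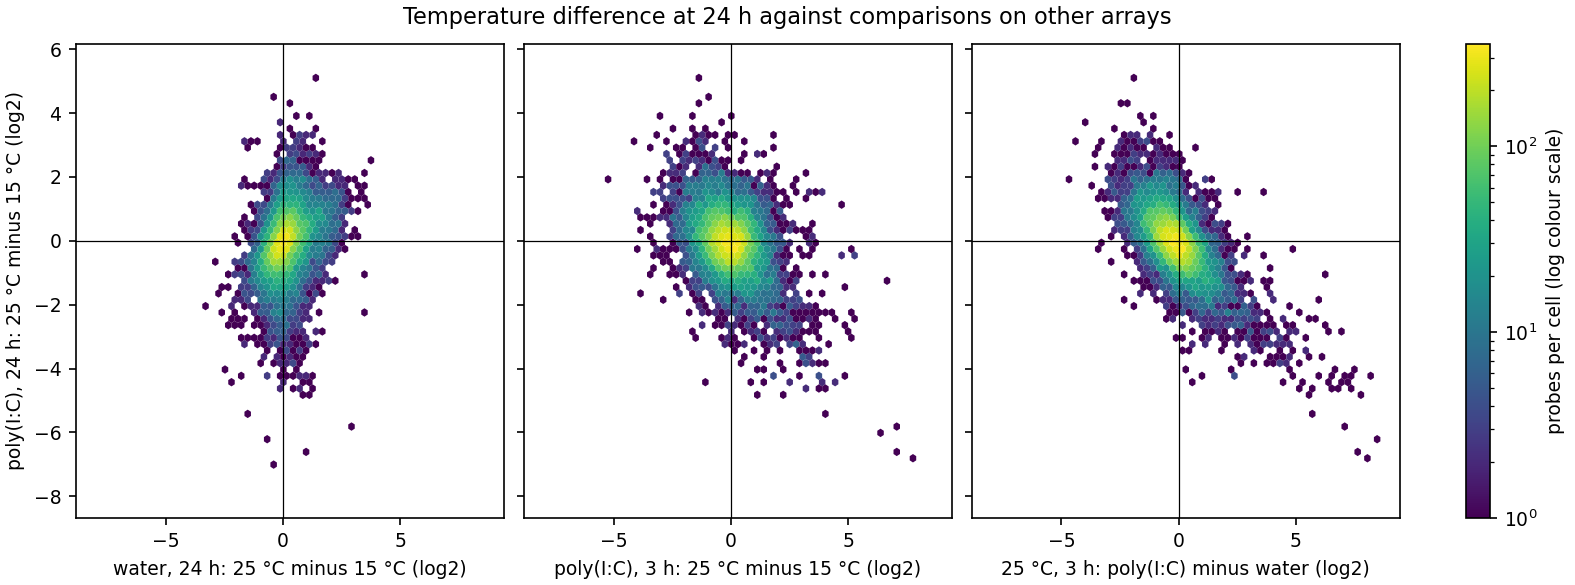
Difference between 25 °C and 15 °C in poly(I:C) fish at 24 h (log2, vertical axis of each panel) against 3 comparisons made on other arrays (log2, horizontal axes): the temperature difference in water at 24 h, that in poly(I:C) at 3 h, and the response to poly(I:C) at 25 °C and 3 h. Cells are coloured by the number of the 13377 probes they hold, on a log colour scale; the cloud tilts upward in the first panel (r = 0.33) and downward in the other two (r = -0.40 and -0.68). Those other panels share the poly(I:C) arrays of 25 °C and 3 h.

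The levels behind the 4-fold lists show which groups were high. Each probe's signal was set against its own mean over the 24 arrays, and the median over the list was taken on each array. The 318 probes at least 4-fold lower at 25 °C had medians of 1.87 to 2.02 on the arrays of poly(I:C), 15 °C and 24 h, and -0.84 to -0.55 on those of 25 °C and 24 h, which is how they were chosen. On arrays that do not enter this difference they stood at 1.73 to 1.97 in poly(I:C) fish at 25 °C and 3 h, at -0.20 to -0.02 at 15 °C and 3 h, and at -1.05 to -0.55 in the 12 water arrays. The group at 25 °C and 3 h, which did not choose the list, thus lay above the water arrays. The mean of the 24 arrays includes the arrays that chose the list, so where 0 lies depends in part on that choice. The 152 probes at least 4-fold higher at 25 °C gave the mirror order. Their medians were -1.88 to -1.74 at 15 °C and 24 h and 0.48 to 0.85 at 25 °C and 24 h, against -1.19 to -0.73 at 25 °C and 3 h and 0.25 to 0.90 on the water arrays.

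The response to poly(I:C) at 24 h shares its poly(I:C) arrays with the temperature contrast, so its values are given only side by side. At 15 °C the poly(I:C) arrays were on slide 1 and the water arrays on slide 2, so treatment and slide cannot be told apart. At 25 °C the water arrays were on slide 3, with poly(I:C) replicates 2 and 3, while poly(I:C) replicate 1 was on slide 2. For the 318 probes the median response, poly(I:C) minus water, was 2.90 at 15 °C and 0.22 at 25 °C, beside a median temperature difference of -2.60. For the 152 probes it was -2.10 at 15 °C and -0.25 at 25 °C, beside 2.32. Over all 3038 lower probes the medians were 0.60 at 15 °C and -0.05 at 25 °C, and over all 2581 higher probes -0.67 and -0.18. Over all tested probes they were -0.0027 and -0.16. In water the median temperature difference was -0.07 for the 318 probes and 0.50 for the 152, against 0.08 for all tested probes.

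**Figure D5:**
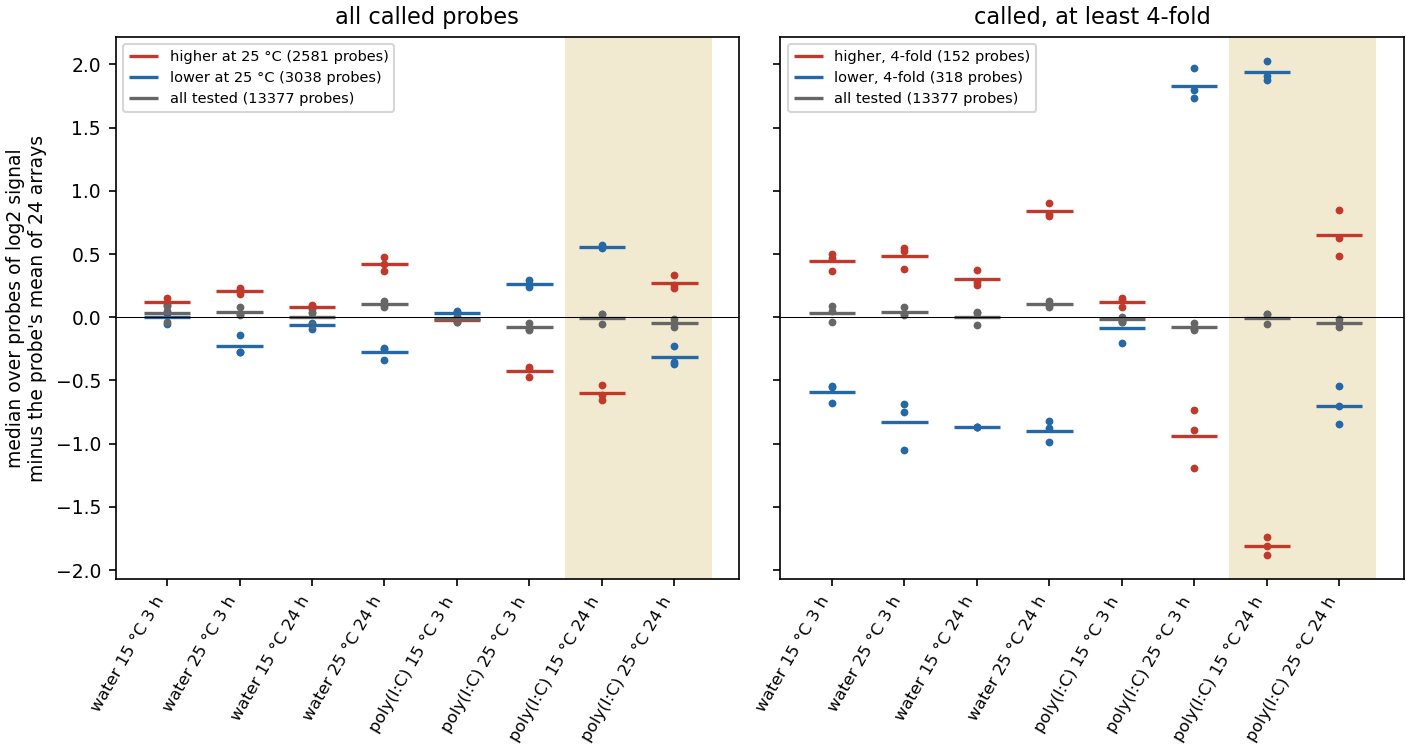
Median over a list of probes of the log2 signal minus each probe's mean of the 24 arrays (vertical axis), by group (horizontal axis), for all called probes (left) and those with at least a 4-fold difference (right). Points are arrays, horizontal bars the mean of 3 arrays, grey is all 13377 tested probes, and the shaded band marks the arrays that chose the lists; the 318 probes lower by 4-fold lie between 1.73 and 2.02 in 2 poly(I:C) groups, 25 °C at 3 h and 15 °C at 24 h.

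The slides bear on the counts as follows. Taking the 25 °C array of slide 2 alone against the 15 °C arrays, the median difference was 0.80 for the higher probes and -0.78 for the lower. With the slide 3 arrays alone it was 0.90 and -0.91. These arrays also chose the probes, so the values are descriptions. With slide as a fixed block the count fell to 1476, since of the 25 °C arrays only that of slide 2 then carries weight and the slides are tied through 3 water arrays of 15 °C and 3 h. Of the 5619 calls, 96.9% had the same direction in that fit. The fit uses arrays that chose the calls, so this share is a description only. Its median standard error was 0.41 in place of 0.20. With slide as a random block 5234 probes were called. A slide effect shared by slides 2 and 3 and absent from slide 1 was not tested within these 6 arrays.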

How the data were processed

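Spleen RNA was measured on 24 Agilent single-colour arrays, 3 in each of 8 groups taken from the labels. The deposited scanner files hold intensity per spot on a linear scale, background-subtracted and not scaled between arrays, by Agilent Feature Extraction 10.7.3.1 per the file headers, whereas the submitters' processing notes give 9.5.3.1. The deposited value table holds log2 values of the same arrays by the authors. Set against the scanner values, 100% of them lay within 0.02 of the scaling used here once 1 constant per probe was removed. Its scale and direction are thus known, its centring per probe is unknown, and its column medians on the 6 arrays ran from -0.12 to -0.00056.

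Control spots and spots marked as outliers (10 to 22 on each of the 6 arrays) were dropped. Probes with several spots (20 with 10 spots, against 14461 with 1) got the mean of their log2 signals, and each array's 75th percentile was subtracted. Group means were fitted to all 24 arrays with limma 3.58.1 in R 4.3.3 (16 residual and 2.65 prior degrees of freedom), and contrasts were tested with Benjamini-Hochberg adjustment. Of the tested probes, 10 lacked a value on at least 1 of the 6 arrays and were fitted on the others. The limma fit and the calls were tested on simulated data with no slide effect and fewer changed probes than were called here. The scaling, the filter and the dropping of outlier spots were not part of that test. The named probes are the 2 with the largest rise and the 2 with the largest fall among the calls of each contrast, with no overlap between the groups except in the interactions. Identifiers without gene names leave the planned gene lists and marker lists void. The normexp alternative (offset 50) used median spot signals, as the files used here hold no mean signal. The members and lists were chosen with earlier results of these data known. Alternatives were other scalings, background correction, filters, thresholds, slide and replicate blocks, the deposited table and leaving out each array. The number of arrays limits the precision.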

Additional observations from a re-analysis of the deposited data

Results flagged for a closer look

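The temperature difference at 24 h under poly(I:C) was set against the same difference in water fish by an interaction term. This called 3164 of 13377 probes, and 1224 with slide as a fixed block. The groups lie on unlike slides, so slide effects need not cancel in this term. Among the named probes the difference between treatments was 4.83 on the log2 scale for CUST_6556_PI426483990 and 4.62 for CUST_5405_PI426483990. It was -8.60 for CUST_6587_PI426483990 and -7.50 for CUST_13312_PI426483990, neither of which was well above background on the water arrays of 15 °C and 24 h, so that their sizes are not fully measured.

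The temperature difference under poly(I:C) at 24 h was set against that at 3 h in the same way. This called 6512 probes, and 5286 with slide as a fixed block. The difference between the times was 7.34 for CUST_5622_PI426483990 and 7.24 for CUST_9137_PI426483990. It was -14.66 for CUST_11992_PI426483990, whose dim groups were not above background at either time, and -13.61 for CUST_13312_PI426483990.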

How the results depend on the processing

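The 5 counts of calls moved by over 1.5 times under few alternatives, and their cause was not tested beyond the weights and errors given with each. For temperature in poly(I:C) at 24 h, the count of 5619 became 2560 with normexp background correction, which moved the median difference of all probes from -0.04 to 0.31 (1405 higher, 1155 lower) and in which 85.9% of the 5619 calls had the same direction. It became 1476 with slide as a fixed block and 2997 with only the 25 °C array of slide 2, a choice made after seeing the data, in which 99.4% of the calls had the same direction. The treatment interaction fell from 3164 to 925 with normexp, to 1224 with the slide block and to 1774 at an adjusted p under 0.01. The time interaction fell from 6512 to 3457 with normexp. The water contrast fell from 3738 to 741 with normexp, to 214 with the slide block and to 2027 at an adjusted p under 0.01, and the 3 h contrast from 6312 to 2732 with normexp and to 2819 with the slide block. Leaving out each array in turn gave 4606 to 5478 calls for the 24 h contrast, 2622 to 2975 and 6011 to 6471 for the treatment and time interactions, 2706 to 3106 in water and 5481 to 5858 at 3 h. On the 6 compared arrays, deviations from the group means correlated at -0.02, 0.07 and 0.02 between arrays of the same replicate number. No shared deviation was thus seen, but such values cannot show whether the numbers pair samples. With the replicate number as a block the counts were 5522, 3079, 6432, 3605 and 6225. The following counts for the 24 h contrast differed from 5619 by less than 1.5 times. The largest shift among them was to 3948 at an adjusted p under 0.01. The count was 5729 with quantile scaling, 5614 with median scaling, 5609 with the deposited table and 5585 with no filter. A stricter filter gave 5175, only the compared groups 5472, and a trended, robust prior 5618. Named probes gave 388 values under the alternatives, of which 383 had the main direction and side of the threshold. The other 5 missed the threshold with the slide block: the 4 named in the water contrast, and CUST_13312_PI426483990 at 3 h.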

Other observations

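The 2 probes with the largest called rise and the 2 with the largest called fall at 25 °C in water were set beside their difference under poly(I:C) at 24 h. The water arrays of the 2 temperatures were on different slides, and none of the 4 water differences passed the threshold with slide as a fixed block. CUST_12416_PI426483990 was 3.72 higher at 25 °C in water and 2.48 higher under poly(I:C) (log2; limma adjusted p = 0.000455 for the latter). CUST_8887_PI426483990 was 3.54 higher in water and 1.78 higher under poly(I:C) (limma adjusted p = 0.0128), with log2 signals of -3.59, -1.18 and -1.12 on the 25 °C arrays, the slide 2 array being the low one. CUST_12995_PI426483990 differed by -3.43 in water and -2.04 under poly(I:C) (limma adjusted p = 0.0053). CUST_13670_PI426483990 differed by -2.97 in water and -0.65 under poly(I:C), which was not called (limma adjusted p = 0.522). The interaction between temperature and treatment was not called for any of the 4 (limma adjusted p from 0.107 to 0.212).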
